A study of Mus musculus with 26 samples.

Results

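The chemokine ligand genes are the genes of the small secreted proteins that direct the movement of white blood cells. Members were the mouse gene symbols made of Ccl or Cxcl, a number and at most 1 further letter, together with Xcl1 and Cx3cl1, without pseudogenes and without 1 symbol that is not reported here. Of 55416 genes in the count tables, 52083 had a symbol, and 37 were members by this rule, which used no measured value. Members of the list were Ccl1, Ccl2, Ccl3, Ccl4, Ccl5, Ccl6, Ccl7, Ccl8, Ccl9, Ccl11, Ccl12, Ccl17, Ccl19, Ccl20, Ccl21a, Ccl21b, Ccl24, Ccl25, Ccl26, Ccl27a, Ccl27b, Ccl28, Cx3cl1, Xcl1 and Cxcl1, Cxcl2, Cxcl3, Cxcl5, Cxcl9, Cxcl10, Cxcl11, Cxcl12, Cxcl13, Cxcl14, Cxcl15, Cxcl16 and Cxcl17.

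Chemokines bind receptors on the surface of leukocytes and draw the cells along a gradient. Inflammatory ligands are transcribed after stimulation with interferons, microbial products or cytokines, whereas homeostatic ligands are made constantly by stroma, endothelium and epithelium and keep lymphocytes and monocytes moving through tissues. In tumours of the lung, ligands of CXCR3 are known for attracting effector T cells and natural killer cells, and ligands of CCR2 for attracting monocytes.

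RNA was sequenced from C57BL/6 mice that had received B16F10 cells, a mouse melanoma line, through a vein, so that all groups compared here carried lung metastases. The treated mice were given propranolol, a blocker of β-adrenoceptors, and the others had no treatment; the labels give no vehicle, dose or age. Whole lung was sequenced from 5 propranolol and 5 untreated samples, monocytes taken from lung by flow sorting from 4 and 4, and CD4 T cells taken from lung with magnetic beads from 4 and 4. Counts of the CD4 T cells were deposited in a separate count table from those of lung and monocytes. A difference between the count tables therefore cannot be told apart from a difference between CD4 T cells and lung. Nothing in the labels ties each library to an animal of its own. A p-value here therefore reflects how much these libraries vary, which may be technical variation.

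Library totals ran from 29650148 to 43447855 in propranolol lungs and from 33232082 to 47618634 in untreated lungs. They ran from 36277687 to 46407803 in propranolol and from 36371431 to 48306925 in untreated monocyte libraries, and from 27742422 to 42484125 in propranolol and from 17625672 to 35600275 in untreated CD4 T cells. The CD4 T cell libraries held T cell markers, whose 10-gene list summed to 4837 to 5245 CPM (reads scaled to a common library total) in propranolol and to 3855 to 3910.0 CPM in untreated libraries. Of the 10-gene alveolar type 2 list, Sftpc, Sftpa1, Sftpd and Slc34a2 had 0 reads there. That list still summed to 92.2 to 104.9 CPM in propranolol and 180.7 to 186.8 CPM in untreated CD4 libraries. The 14-gene endothelium list summed to 109.7 to 122.6 CPM and 186.4 to 195.6 CPM in these groups. The 6-gene plasma cell list summed to 4967 to 9180 CPM in propranolol and 9263 to 9581 CPM in untreated CD4 libraries. The libraries labelled monocytes held the monocyte receptor gene Csf1r at 514 to 679 CPM in propranolol and 405 to 507 CPM in untreated libraries, but also Sftpc at 1977 to 2329 CPM in propranolol and 2189 to 2397 CPM in untreated libraries, and RNA of endothelium, fibroblasts and melanoma. Libraries 1 and 2 of the monocyte material also stood apart from libraries 3 and 4 within each treatment, so the counts of calls in these libraries are also given with the close libraries summed, a check chosen after the data had been seen.

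Levels of Cxcl9, Cxcl10 and Ccl5, which mark inflamed tissue, are given first as plain CPM, that is the count divided by the library's own total. Cxcl10, an interferon-induced ligand of CXCR3, had 185, 197, 180.3 and 187 plain CPM in the propranolol CD4 T cells, against 3.97, 3.94, 5.08 and 4.17 plain CPM in the untreated CD4 T cells. The monocyte libraries held 81.8, 76.7, 62.96 and 57.7 plain CPM of Cxcl10 with propranolol, against 48.1, 45.3, 42.1 and 42.2 plain CPM untreated. In whole lung it had 11.01, 6.48, 14.9, 7.87 and 10.2 plain CPM with propranolol and 11.9, 9.39, 17.5, 13.1 and 13.2 plain CPM untreated. Thus the propranolol groups stood above the untreated ones in both kinds of isolated cells without overlap, while the whole lung groups overlapped. In bulk samples such as these, fewer cells of a type and less RNA per cell cannot be told apart. From low to high the groups ran from untreated CD4 T cells through the overlapping lung groups, untreated monocyte libraries and propranolol monocyte libraries to propranolol CD4 T cells.

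Cxcl9, the second interferon-induced ligand of CXCR3, had 13.6, 15.8, 15.6 and 15.5 plain CPM in the propranolol CD4 T cells, against 1.25, 0.449, 0.169 and 0.432 plain CPM in the untreated CD4 T cells. The propranolol monocyte libraries had 9.57, 8.02, 9.35 and 10.5 plain CPM of Cxcl9, and the untreated ones 7.29, 6.67, 5.67 and 4.04 plain CPM. Propranolol lungs had 4.02, 3.64, 6.17, 3.54 and 2.65 plain CPM and untreated lungs 1.30, 0.722, 2.20, 2.23 and 2.50 plain CPM. In this scale no untreated library reached any propranolol library of its own kind, and among neighbouring groups untreated CD4 T cells overlapped untreated lung and propranolol lung overlapped untreated monocyte libraries.

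Ccl5, which attracts T cells and natural killer cells and is itself made by such cells, had its highest plain levels in CD4 T cells, 143, 175, 151 and 149.8 plain CPM with propranolol and 112, 131, 125 and 137 plain CPM untreated. Monocyte libraries had 38.6, 39.8, 32.1 and 30.02 plain CPM with propranolol and 9.76, 10.3, 9.94 and 9.90 plain CPM untreated. Whole lung had 23.9, 27.7, 20.3, 20.7 and 15.2 plain CPM with propranolol and 6.45, 4.87, 10.2, 7.98 and 8.73 plain CPM untreated. The propranolol libraries lay above the untreated ones of their kind in all 3 kinds of material, and untreated lung and untreated monocyte libraries overlapped in their levels.

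**Figure D1:**
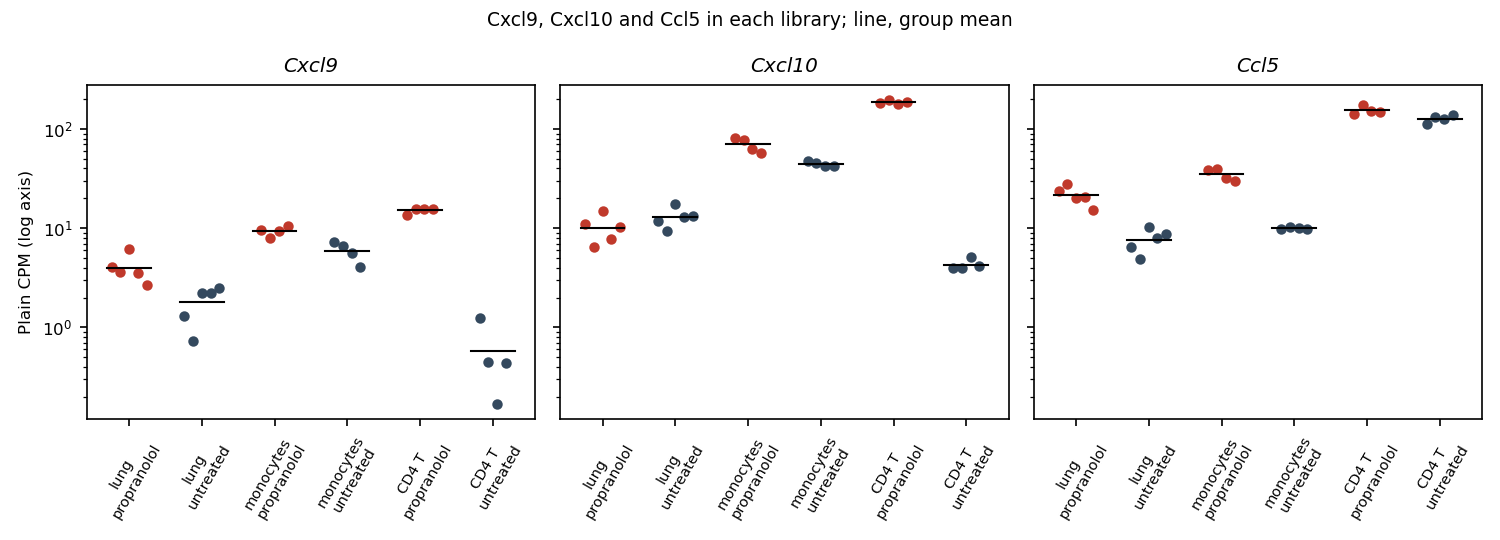
Plain CPM (log axis) of Cxcl9, Cxcl10 and Ccl5, 1 point per library and a line at each group's mean, with propranolol left of untreated in each kind of material. Cxcl10 reaches 180 to 197 CPM in the propranolol CD4 T cells against 3.94 to 5.08 CPM untreated, whereas its whole lung groups overlap.

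The start regions of Cxcl9 and Cxcl10 are shown because these genes moved together in the isolated cells and because their promoters are textbook targets of interferon and NF-κB signalling. The windows come from RefSeq on build GRCm38.p6, run from 250 bases before to 50 bases after the annotated start, and are written 5′ to 3′ on the gene's strand. Capitals mark GAAANNGAA, a short form of the interferon response element, and GGANNTTCC, a short form of the NF-κB element. Each was searched on both strands, and the NF-κB form reads the same on both. Other spellings of these elements were not searched, so lower case letters do not show that a site is absent. The Cxcl9 window is chr5:92328030-92328329 on the minus strand, with GAAANNGAA at −175 from the start. The Cxcl10 window is chr5:92348840-92349139 on the minus strand, with GAAANNGAA at −213 and GGANNTTCC at −158.
Cxcl9: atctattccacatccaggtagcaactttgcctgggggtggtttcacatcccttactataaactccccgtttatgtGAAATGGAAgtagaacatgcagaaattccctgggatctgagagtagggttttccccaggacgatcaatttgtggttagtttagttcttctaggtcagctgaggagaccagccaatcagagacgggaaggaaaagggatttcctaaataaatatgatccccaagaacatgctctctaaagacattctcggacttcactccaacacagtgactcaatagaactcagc
Cxcl10: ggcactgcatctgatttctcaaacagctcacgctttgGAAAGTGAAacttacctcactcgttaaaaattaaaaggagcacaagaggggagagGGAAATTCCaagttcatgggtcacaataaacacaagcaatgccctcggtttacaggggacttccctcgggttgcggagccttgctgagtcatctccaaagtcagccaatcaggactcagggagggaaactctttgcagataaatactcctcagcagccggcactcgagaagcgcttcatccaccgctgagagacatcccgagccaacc

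RefSeq windows were found for 26 of the 37 members, 32 windows in all, since a few genes have more than 1 start. GAAANNGAA was in 6 of these 32 windows (18.8%), those of Ccl1, Ccl3, Ccl19, Cxcl9, Cxcl10 and Cxcl14, and in 8.56% of all 32851 windows of the same length. GGANNTTCC was in 6 of 32 (18.8%), those of Ccl1, Ccl12, Cxcl1, Cxcl2, Cxcl3 and Cxcl10, and in 4.26% of all windows. TTCNNNGAA, a short form of the STAT element that reads the same on both strands, was in 2 of 32 (6.25%) and in 8.3% of all windows. β-adrenoceptors are known to signal through cyclic AMP, so the cyclic AMP response element was searched too. Its full form TGACGTCA was in none of the 32 member windows and in 1.79% of all, and TGACG, which that full form contains, was in 7 of 32 (21.9%) and in 20.8% of all on either strand. A match of letters is a description and does not show a bound site, and a window without a match may hold another spelling.

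Before any treatment effect, the untreated libraries showed which kind of material held which ligand. The libraries labelled monocytes held more of many ligands than whole lung. Of 29 members tested, 20 were higher, where 31.9% of all tested genes were higher, and 1, Cxcl15, was lower, where 33.6% of all tested genes were lower. The median of the 29 log2 differences was 1.79, against -0.04 over all genes tested. Since 3 of the 29 passed the filter on low counts only through the monocyte libraries and 1 only through the lungs, neither the count nor the median is read as support. With the close monocyte libraries summed 18 members were higher and 1 lower, and the calls of Ccl5 and Cxcl5 were lost (adjusted p = 0.0669 and 0.117). With plain library totals as the scale, 18 members were higher and 2 lower, while over all genes 4612 were higher and 7834 lower, against 5816 higher and 6131 lower with TMM, the trimmed mean scaling of edgeR.

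Of the 5 listed neutrophil-attracting ligands of CXCR2, 4 were higher, and Cxcl1, Cxcl2 and Cxcl3 had the greatest differences of all members. Cxcl2 had 318, 311, 323 and 341 plain CPM in the untreated monocyte libraries, against 0.572, 0.722, 0.732, 0.0420 and 0.477 plain CPM in the untreated lungs. For Cxcl2 the log2 difference was 9.54 ± 0.32 (SE, adjusted p = 3.96e-09). Cxcl1 had 90.9, 84.2, 84.1 and 81.3 plain CPM in the monocyte libraries, against 0.416, 1.14, 0.680, 0.546 and 0.364 plain CPM in the lungs. For Cxcl1 the log2 difference was 7.29 ± 0.22 (SE, adjusted p = 1.96e-09). For Cxcl3 the values were 27.1, 29.6, 29.5 and 30.1 plain CPM in the monocyte libraries and 0.260, 1.38, 0.680, 0.546 and 0.182 plain CPM in the lungs. For Cxcl3 the log2 difference was 5.79 ± 0.37 (SE, adjusted p = 2.59e-07). Every monocyte library lay far above every lung library for the 3 genes. Markers of blood cells were higher in the same libraries. The 10-gene neutrophil list summed to 431 to 888 plain CPM in the untreated monocyte libraries and 32.9 to 101 plain CPM in the untreated lungs, the 9-gene monocyte list to 3859.7 to 4079.8 and 491 to 1023 plain CPM, and the 10-gene macrophage list to 1206 to 1603 and 243 to 367 plain CPM. All genes of these lists and all 10 T cell genes were called higher, and their part in the ligand differences was not tested. The windows of the neighbouring genes Cxcl1 (chr5:90890995-90891294, plus strand) and Cxcl2 (chr5:90903649-90903948, plus strand), both of RefSeq on GRCm38.p6, are shown because these genes had among the widest ranges of any member; capitals mark GGANNTTCC at −70 in Cxcl1 and −96 in Cxcl2, and in Cxcl1 also CGTCA, which is TGACG on the other strand.
Cxcl1: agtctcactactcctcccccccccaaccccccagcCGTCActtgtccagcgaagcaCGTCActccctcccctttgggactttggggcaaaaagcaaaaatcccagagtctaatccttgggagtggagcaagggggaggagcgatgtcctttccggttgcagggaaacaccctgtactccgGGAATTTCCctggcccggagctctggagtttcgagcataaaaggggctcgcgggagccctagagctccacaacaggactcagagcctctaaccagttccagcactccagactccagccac
Cxcl2: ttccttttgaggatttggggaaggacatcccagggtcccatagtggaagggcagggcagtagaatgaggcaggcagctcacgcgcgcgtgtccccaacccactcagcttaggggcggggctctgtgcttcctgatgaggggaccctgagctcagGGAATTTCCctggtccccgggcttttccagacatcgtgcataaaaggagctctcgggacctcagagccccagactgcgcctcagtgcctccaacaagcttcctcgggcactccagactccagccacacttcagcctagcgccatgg

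Other inflammatory ligands followed. Ccl7, a CCR2 ligand that attracts monocytes, had 36.9, 35.6, 37.1 and 37.2 plain CPM in the monocyte libraries, against 1.95, 2.80, 2.25, 2.63 and 3.30 plain CPM in the lungs. For Ccl7 the log2 difference was 4.0 ± 0.13 (SE, adjusted p = 2.87e-09). Ccl2, the main monocyte attractant, had 65.1, 62.3, 64.5 and 64.8 plain CPM, against 4.16, 7.49, 3.71, 5.25 and 4.46 plain CPM. For Ccl2 the log2 difference was 3.85 ± 0.18 (SE, adjusted p = 2.82e-08). Ccl3 and Ccl4, inflammatory ligands that attract macrophages and T cells, had 29.9 to 31.8 and 23.9 to 25.96 plain CPM in the monocyte libraries, against 0.637 to 1.39 and 0.364 to 1.65 plain CPM in the lungs. The log2 differences were 5.09 ± 0.17 (SE, adjusted p = 4.62e-09) for Ccl3 and 4.94 ± 0.36 (SE, adjusted p = 5.94e-07) for Ccl4. None of these groups overlapped.

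Ccl9, a myeloid ligand of CCR1 in rodents, had 254, 226, 190.1 and 194 plain CPM in the monocyte libraries, against 20.5, 23.5, 15.9, 13.8 and 14.98 plain CPM in the lungs. For Ccl9 the log2 difference was 3.78 ± 0.18 (SE, adjusted p = 3.78e-08). Ccl17, a ligand of CCR4 made by dendritic cells, had 28.6, 29.4, 20.5 and 20.2 plain CPM, against 2.60, 1.20, 2.87, 2.39 and 3.32 plain CPM. For Ccl17 the log2 difference was 3.49 ± 0.24 (SE, adjusted p = 3.88e-07). Cxcl13, the ligand of CXCR5 that draws B cells into follicles, had 11.2, 12.2, 15.04 and 17.9 plain CPM in the monocyte libraries and 0.520, 0.602, 0.889, 1.05 and 1.0 plain CPM in the lungs. For Cxcl13 the log2 difference was 4.27 ± 0.21 (SE, adjusted p = 4.5e-08). Each was above every lung library in all 4 monocyte libraries.

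Cxcl10 and the CXCR4 ligand Cxcl12, which stroma and endothelium make, were also higher in the untreated monocyte libraries, by 1.95 ± 0.14 (adjusted p = 5.52e-07) and 1.60 ± 0.13 (adjusted p = 1.35e-06) on the log2 scale. Cxcl12 had 449.9, 442, 429 and 428 plain CPM in the monocyte libraries, against 125, 145, 217, 167 and 164 plain CPM in the lungs. The endothelium list of 14 genes moved with it: its sum was 7465 to 7595 plain CPM in the untreated monocyte libraries and 1891 to 3199 plain CPM in the untreated lungs, all 14 genes were called higher, and their part in the Cxcl12 result was not tested. Cxcl15, a ligand made by lung epithelium in mice, was lower, with 231, 235, 227 and 248 plain CPM in the monocyte libraries and 364, 524, 629, 479.5 and 461 plain CPM in the lungs. For Cxcl15 the log2 difference was -0.89 ± 0.13 (SE, adjusted p = 0.000128). Of the other called members Cxcl16, Ccl12, Ccl24, Ccl6, Cx3cl1 and Cxcl9 were higher by 1.26 to 3.89 on the log2 scale, and Ccl5 and Cxcl5 by 0.56 and 0.91 with groups that overlapped; Ccl5 and Cxcl5 lost the call with plain library totals (adjusted p = 0.0849 and 0.0848), and Cxcl5 also without any single library but untreated lung 2 (0.0502 to 0.117). Ccl8, Ccl11, Ccl21a, Ccl25, Ccl27a, Ccl28, Cxcl14 and Cxcl17 were not called, except that Ccl21a was called lower with plain library totals (-0.47, adjusted p = 0.0377).

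The untreated CD4 T cells held less of most ligands than whole lung. Of 29 members tested, 4 were higher (Ccl5, Xcl1, Ccl3 and Ccl25), where 39.9% of all tested genes were higher, and 22 were lower, where 44% were lower. Of the 29, 17 passed the filter on low counts only through the lung libraries, so they had to be lower in CD4 T cells, and neither the count nor the median is read as support. The median log2 difference was -3.95 over the 29 and -0.07 over all genes tested, and it is the same with the members at 0 reads put at their bounds.

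Ccl5 stood out by its level in these cells, at 112, 131, 125 and 137 plain CPM in the untreated CD4 T cells, against 6.45, 4.87, 10.2, 7.98 and 8.73 plain CPM in the untreated lungs. For Ccl5 the log2 difference was 3.94 ± 0.17 (SE, adjusted p = 9.83e-10). Xcl1, a ligand of XCR1 on dendritic cells, had 4.43, 4.58, 4.97 and 4.63 plain CPM in the CD4 T cells and 0.0780, 0, 0.235, 0.252 and 0.273 plain CPM in the lungs. For Xcl1 the log2 difference was 4.62 ± 0.45 (SE, adjusted p = 1.49e-06). Neither pair of groups overlapped. Ccl3 and Ccl25 were higher by 0.97 ± 0.30 (adjusted p = 0.00952) and 0.30 ± 0.13 (adjusted p = 0.0442). With the size factors of DESeq2 the call of Ccl25 was lost (adjusted p = 0.102), as it was without any of 6 single libraries, untreated lung 1, 2, 4 or 5 or untreated CD4 library 1 or 3 (0.0607 to 0.17).

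Ligands of stroma and epithelium, and ligands of CCR2, were at or near 0 in the untreated CD4 T cells. Over the 4 libraries Cxcl15, Cxcl14, Ccl21a, Ccl8, Ccl7, Ccl11 and Ccl12 had 0 reads. Against a floor of 3 counts over the group, Cxcl15 was at least 19040-fold lower than in the untreated lungs, where it had 364 to 629 plain CPM, and Cxcl14 at least 4789-fold lower. Ccl21a was at least 737-fold lower, Ccl8 at least 109-fold, Ccl7 at least 101-fold, Ccl11 at least 84.0-fold and Ccl12 at least 48.3-fold. Cxcl12 had 0.227, 0.128, 0 and 0 plain CPM in the CD4 T cells, against 125 to 217 plain CPM in the lungs. For Cxcl12 the log2 difference was -11.23 ± 0.37 (SE, adjusted p = 9.52e-11).

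The membrane-anchored ligands Cxcl16, a ligand of CXCR6, and Cx3cl1, the ligand of CX3CR1, were lower as well. Cxcl16 had 2.38, 1.15, 1.10 and 1.48 plain CPM in the untreated CD4 T cells, against 22.05, 35.3, 38.1, 26.6 and 30.1 plain CPM in the lungs. For Cxcl16 the log2 difference was -4.48 ± 0.25 (SE, adjusted p = 7.83e-09). Cx3cl1 had 0, 0.641, 0.449 and 0.556 plain CPM, against 22.3, 20.4, 44.3, 29.2 and 34.8 plain CPM. For Cx3cl1 the log2 difference was -6.14 ± 0.41 (SE, adjusted p = 4.24e-08). Cxcl17, a mucosal ligand, had 0 to 0.0641 plain CPM in the CD4 T cells and 5.85 to 16.4 plain CPM in the lungs. For Cxcl17 the log2 difference was -8.38 ± 0.54 (SE, adjusted p = 3.43e-08). Ccl2 had 0 to 0.113 plain CPM in the CD4 T cells and 3.71 to 7.49 plain CPM in the lungs. For Ccl2 the log2 difference was -7.13 ± 0.56 (SE, adjusted p = 1.94e-07). Ccl17 had 0.113 to 0.281 plain CPM in the CD4 T cells and 1.20 to 3.32 plain CPM in the lungs. For Ccl17 the log2 difference was -3.95 ± 0.41 (SE, adjusted p = 2.59e-06). The CD4 groups lay below the lung groups without overlap for all 5. Ccl24 had 2 reads in the untreated CD4 T cells and 242 in the untreated lungs, and was 70.1-fold lower in plain CPM (95% exact interval 19.2 to 582). Cxcl1 had 2 and 122 reads in those groups and was 35.4-fold lower (95% exact interval 9.58 to 295). Of the other members called lower, Cxcl13 differed by -3.46 ± 0.81, Ccl28 by -2.38 ± 0.70, Ccl6 by -2.02 ± 0.27 and Cxcl10 by -1.69 ± 0.18 on the log2 scale (± SE). Cxcl9, at -1.86 ± 0.52, Cxcl5, at -1.89 ± 0.81, and Ccl9, at -0.42 ± 0.18, had overlapping groups. The calls of Cxcl5 and Ccl9 (adjusted p = 0.0478 and 0.0493) were lost with plain library totals (adjusted p = 0.0621 and 0.101) and when single libraries were left out, with adjusted p up to 0.111 for Cxcl5 and 0.127 for Ccl9. Ccl27a, Ccl4 and Cxcl2 were not called, except that Cxcl2 was called lower without untreated lung 4 (-1.79, adjusted p = 0.0204).

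Propranolol and untreated libraries were then compared within each kind of material. Values in these comparisons are scaled CPM, CPM after TMM scaling within the comparison, and a member was called at an adjusted p under 0.05 in edgeR's quasi-likelihood test over all genes.

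In CD4 T cells nearly every ligand gene that could be tested was higher with propranolol. Of the 37 members 19 passed the filter on low counts; 17 of these were called higher, where 30.1% of all tested genes were higher, 1 was called lower, where 29.9% were lower, and Ccl27a was not called. However, 9 of the 19 passed the filter only through the propranolol libraries, so these had to be higher. These 9 were Ccl1, Ccl2, Ccl20, Cx3cl1, Cxcl1, Cxcl2, Cxcl9, Cxcl11 and Cxcl13. Neither the count nor the median is read as support, nor is the adjusted p or the separation of these 9 genes. The median log2 change was 3.77 over the 19 members and -0.04 over all genes; it is the same with Ccl20, which had 0 untreated reads, at its lower bound. The scale matters here, since with plain library totals the median of all genes was -0.42; then 15 members were higher and 1 lower, and over all genes 2890 were higher and 8056 lower, against 4982 higher and 4947 lower with TMM.

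All 3 ligands of CXCR3 were higher, of which Cxcl9 and Cxcl11 passed the filter only through the propranolol libraries and so had to be. Cxcl10 had 211, 227, 206 and 213 scaled CPM in the propranolol CD4 T cells, against 3.47, 3.44, 4.46 and 3.65 scaled CPM in the untreated CD4 T cells. For Cxcl10 the log2 change was 5.82 ± 0.10 (SE, adjusted p = 3.93e-12). Cxcl9 had 15.5, 18.2, 17.9 and 17.6 scaled CPM in the propranolol CD4 T cells, against 1.09, 0.392, 0.148 and 0.379 scaled CPM in the untreated CD4 T cells. For Cxcl9 the log2 change was 5.28 ± 0.35 (SE, adjusted p = 1.63e-07). Cxcl11, whose reading frame is broken in C57BL/6 mice so that its RNA is not known to give a working protein, had 3.11, 3.32, 2.72 and 3.49 scaled CPM in the propranolol CD4 T cells, against 0, 0.0560, 0.0985 and 0 scaled CPM in the untreated CD4 T cells. For Cxcl11 the log2 change was 6.04 ± 0.55 (SE, adjusted p = 2.25e-06). Every propranolol library exceeded every untreated library for each of the 3 genes.

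The group of inflammatory CC ligands made up of Ccl3, Ccl4, Ccl5, Ccl6 and Ccl9 also rose, 5 of 5. Ccl3 had 22.3, 17.4, 20.4 and 20.5 scaled CPM in the propranolol CD4 T cells, against 1.63, 2.69, 1.77 and 1.46 scaled CPM in the untreated CD4 T cells. For Ccl3 the log2 change was 3.41 ± 0.19 (SE, adjusted p = 2.86e-08). Ccl4 had 13.7, 25.7, 15.5 and 16.9 scaled CPM in the propranolol CD4 T cells, against 1.34, 1.65, 1.30 and 1.35 scaled CPM in the untreated CD4 T cells. For Ccl4 the log2 change was 3.66 ± 0.22 (SE, adjusted p = 6.09e-08). The groups did not overlap for either gene, and propranolol library 2 was the highest for Ccl4. Ccl5 had 163, 202, 172 and 170.3 scaled CPM in the propranolol CD4 T cells, against 98.1, 114, 109.9 and 120.0 scaled CPM in the untreated CD4 T cells. For Ccl5 the log2 change was 0.68 ± 0.08 (SE, adjusted p = 2.71e-05). Its lowest propranolol library was above its highest untreated one. Ccl9 averaged 29.4 ± 7.17 scaled CPM in the propranolol CD4 T cells and 12.4 ± 1.65 scaled CPM in the untreated CD4 T cells (SD, n = 4 each), a log2 change of 1.24 ± 0.17 (SE, adjusted p = 6.2e-05). Ccl6 averaged 38.02 ± 5.30 scaled CPM in the propranolol CD4 T cells and 25.2 ± 3.69 scaled CPM in the untreated CD4 T cells (SD, n = 4 each), a log2 change of 0.59 ± 0.13 (SE, adjusted p = 0.00199). With plain library totals Ccl6 was no longer called (0.20, adjusted p = 0.18).

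Neutrophil-attracting ligands were almost absent from the untreated CD4 T cells. Cxcl2 had 18.4, 21.5, 22.4 and 19.99 scaled CPM in the propranolol CD4 T cells, against 0.297, 0, 0.148 and 0.271 scaled CPM in the untreated CD4 T cells. For Cxcl2 the log2 change was 6.92 ± 0.35 (SE, adjusted p = 1.54e-08). Cxcl1 had 2.01, 5.23, 4.22 and 4.25 scaled CPM in the propranolol CD4 T cells, against 0, 0, 0 and 0.0541 scaled CPM in the untreated CD4 T cells; over the groups this was 455 against 2 reads, a ratio of 192 in plain CPM with a 95% exact interval of 52.8 to 1587 that covers counting error only (adjusted p = 1.3e-06). Reads of both genes were in every propranolol library, and in 3 and 1 of the 4 untreated libraries. Cxcl3 was not tested and had 0.644, 0.997, 0.408 and 0.261 scaled CPM with propranolol, against 0, 0.0560, 0 and 0.162 scaled CPM untreated, without overlap; Cxcl5 overlapped at 0 to 0.166 and 0 to 0.297 scaled CPM.

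Of the CCR2 ligands, Ccl2 had 1.93, 4.82, 2.38 and 2.35 scaled CPM in the propranolol CD4 T cells, against 0.0991, 0.0560, 0 and 0 scaled CPM in the untreated CD4 T cells. For Ccl2 the log2 change was 6.36 ± 0.69 (SE, adjusted p = 1.04e-05). Propranolol library 2 was above the other 3, and the groups did not overlap. Ccl7 was not tested; it had 46 reads over the propranolol libraries and 0 over the untreated ones, at least 12.9-fold higher against the floor of 3 counts. Ccl8 had 0 reads in all 8 CD4 T cell libraries, and Ccl12 had 4 reads with propranolol and 0 untreated.

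The membrane-anchored ligands and Xcl1 rose together with these. Cxcl16 had 25.3, 22.8, 23.4 and 18.5 scaled CPM in the propranolol CD4 T cells, against 2.08, 1.01, 0.960 and 1.30 scaled CPM in the untreated CD4 T cells. For Cxcl16 the log2 change was 4.13 ± 0.22 (SE, adjusted p = 2.04e-08). Cx3cl1 had 8.73, 9.56, 7.24 and 8.13 scaled CPM in the propranolol CD4 T cells, against 0, 0.560, 0.394 and 0.487 scaled CPM in the untreated CD4 T cells. For Cx3cl1 the log2 change was 4.41 ± 0.41 (SE, adjusted p = 2.51e-06). Xcl1, which activated T cells and natural killer cells secrete, had 24.1, 28.1, 20.99 and 22.8 scaled CPM in the propranolol CD4 T cells, against 3.86, 4.001, 4.36 and 4.06 scaled CPM in the untreated CD4 T cells. For Xcl1 the log2 change was 2.55 ± 0.12 (SE, adjusted p = 7.63e-09). For none of the 3 genes did the groups overlap, and Xcl1 was present in every untreated library.

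Among ligands of lymphoid tissue Ccl20, the ligand of CCR6, had 1.66, 1.99, 1.56 and 0.980 scaled CPM in the propranolol CD4 T cells and 0 reads in all 4 untreated ones; 186 against 0 reads is at least 52.2-fold higher at the floor of 3 counts over the group (adjusted p = 2.79e-05). Cxcl13 averaged 0.956 ± 0.398 scaled CPM in the propranolol CD4 T cells and 0.0609 ± 0.122 scaled CPM in the untreated CD4 T cells (SD, n = 4 each; adjusted p = 0.0048). All untreated reads of Cxcl13, 9 in number, were in library 4; its log2 change was 3.77 ± 0.94 (SE), and without that library the untreated group is at 0 reads and the fitted value has no meaning as a size. The CCR8 ligand Ccl1 averaged 0.897 ± 0.418 scaled CPM in the propranolol CD4 T cells and 0.252 ± 0.175 scaled CPM in the untreated CD4 T cells (SD, n = 4 each; adjusted p = 0.0361). Ccl1 passed the filter on low counts only through the propranolol libraries. It lost the call with plain library totals (adjusted p = 0.0847) and without any of 5 of the 8 libraries, namely untreated 2, 3 or 4 or propranolol 2 or 4 (0.0509 to 0.0799). Only Ccl25, a ligand of CCR9 known from thymus and gut, fell, with 5.64, 2.08, 5.0 and 5.36 scaled CPM in the propranolol CD4 T cells, against 9.26, 7.61, 10.3 and 7.69 scaled CPM in the untreated CD4 T cells. For Ccl25 the log2 change was -0.94 ± 0.26 (SE, adjusted p = 0.00884). All 4 propranolol libraries were below all untreated ones. Ccl27a, a ligand of CCR10, was not called. For Ccl27a the log2 change was -0.29 ± 0.33 (SE, adjusted p = 0.47).

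Of the remaining untested members, Ccl24 had 48 reads in propranolol and 2 in untreated CD4 T cells, a ratio of 20.2 in plain CPM with a 95% exact interval of 5.30 to 172. Ccl17, Ccl28, Cxcl12, Cxcl15 and Cxcl17 had at most 0.359 scaled CPM in any CD4 T cell library, and Ccl11, Ccl19, Ccl21a, Ccl21b, Ccl26, Ccl27b and Cxcl14 had 0 reads in all 8.

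**Figure D2:**
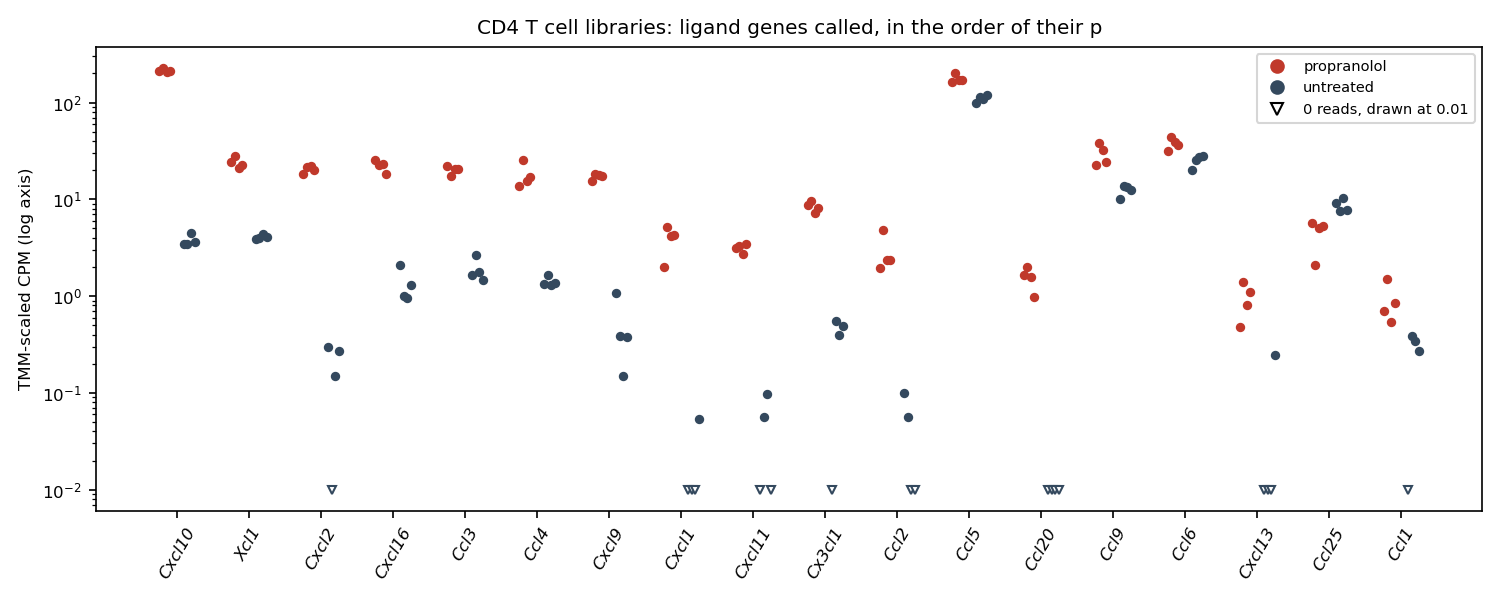
TMM-scaled CPM (log axis) of the 18 ligand genes called in CD4 T cells, 1 point per library, propranolol left of untreated, in the order of their p; open triangles are libraries with 0 reads. Ccl25 is the one that is lower with propranolol. Of the 19 genes tested, 9 passed the filter on low counts only through the propranolol libraries and had to be higher.

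Markers of other cells moved with these changes in the CD4 T cell libraries. Cd14, a receptor of monocytes, had 61.4 to 73.7 plain CPM with propranolol and 0.618 to 1.93 plain CPM untreated, and the 9-gene monocyte list summed to 3446 to 4127 plain CPM with propranolol and 806 to 852 plain CPM untreated, with 6 of 9 genes called higher and 1 lower. Most of that sum with propranolol was Nr4a1, which stimulated T cells also express, at 2867 to 3519 plain CPM with propranolol and 91.2 to 97.9 plain CPM untreated. The 10-gene neutrophil list summed to 1075 to 1556 plain CPM with propranolol and 255 to 355 plain CPM untreated, all 10 called higher, and the 8-gene B cell list to 417 to 537 plain CPM with propranolol and 180.0 to 227 plain CPM untreated, all 8 called higher. The 10-gene macrophage list summed to 21.2 to 41.5 plain CPM with propranolol and 20.1 to 21.4 plain CPM untreated, with 5 of 9 tested genes called higher and its defining genes C1qa, C1qb and C1qc at no more than 6.70 plain CPM in any library. The 8 dendritic cell genes summed to 98.95 to 129.7 plain CPM with propranolol and 99.1 to 111 plain CPM untreated, 5 of 8 called higher, and the 2 CD8 T cell genes to 18.8 to 30.4 plain CPM with propranolol and 11.2 to 14.5 plain CPM untreated, both called higher. Of the alveolar type 2 list 4 of 10 genes were at 0, and the sums of that list and of the plasma cell list were given above. The part of these cells in the ligand results was not tested.

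In the libraries labelled monocytes ligands were called in both directions. Of 31 members tested 5 were called higher, where 14.3% of all tested genes were higher, and 8 were called lower, where 16.1% were lower; 2 of the 31 passed the filter only through the propranolol libraries. The median log2 change was -0.11 over the members and 0.02 over all genes. With plain library totals 7 members were higher and 7 lower, and over all genes 3641 were higher and 2424 lower, against 2614 higher and 2939 lower with TMM. When the close libraries 1 and 2, and 3 and 4, were summed, 2 members stayed called in each direction, Ccl5 and Xcl1 higher and Cxcl2 and Cxcl12 lower.

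Ccl5 had 37.6, 38.9, 31.9 and 29.8 scaled CPM in the propranolol monocyte libraries, against 10.1, 10.5, 10 and 9.84 scaled CPM in the untreated monocyte libraries. For Ccl5 the log2 change was 1.77 ± 0.09 (SE, adjusted p = 4.66e-07; adjusted p = 0.0103 with close libraries summed). Xcl1 had 0.590, 1.21, 0.747 and 0.666 scaled CPM in the propranolol monocyte libraries, against 0.0286, 0.217, 0.0983 and 0.288 scaled CPM in the untreated monocyte libraries. For Xcl1 the log2 change was 2.27 ± 0.49 (SE, adjusted p = 0.00508; adjusted p = 0.0318 summed). All propranolol libraries lay above all untreated ones for both genes. Ccl5 and Xcl1 are known products of cytotoxic lymphocytes, and the 10-gene natural killer and cytotoxic list moved with them: it summed to 88.2 to 129.9 plain CPM with propranolol and 25.5 to 33.3 plain CPM untreated, with 10 of 10 genes called higher. The T cell list did not separate the treatments, at 753, 668, 251 and 198 plain CPM with propranolol and 89.0, 163, 325 and 387 plain CPM untreated. With the T cell level as a covariate the changes were 1.66 for Ccl5 (adjusted p = 1.49e-11) and 1.95 for Xcl1 (adjusted p = 0.00392), while the part of the natural killer genes was not tested. Melanocyte genes summed to 5963 to 8695 plain CPM with propranolol and 4693 to 5663 plain CPM untreated (8 of 10 called higher), and B cell genes to 400.3 to 445 plain CPM with propranolol and 153 to 245 plain CPM untreated (8 of 8 called higher).

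**Figure D3:**
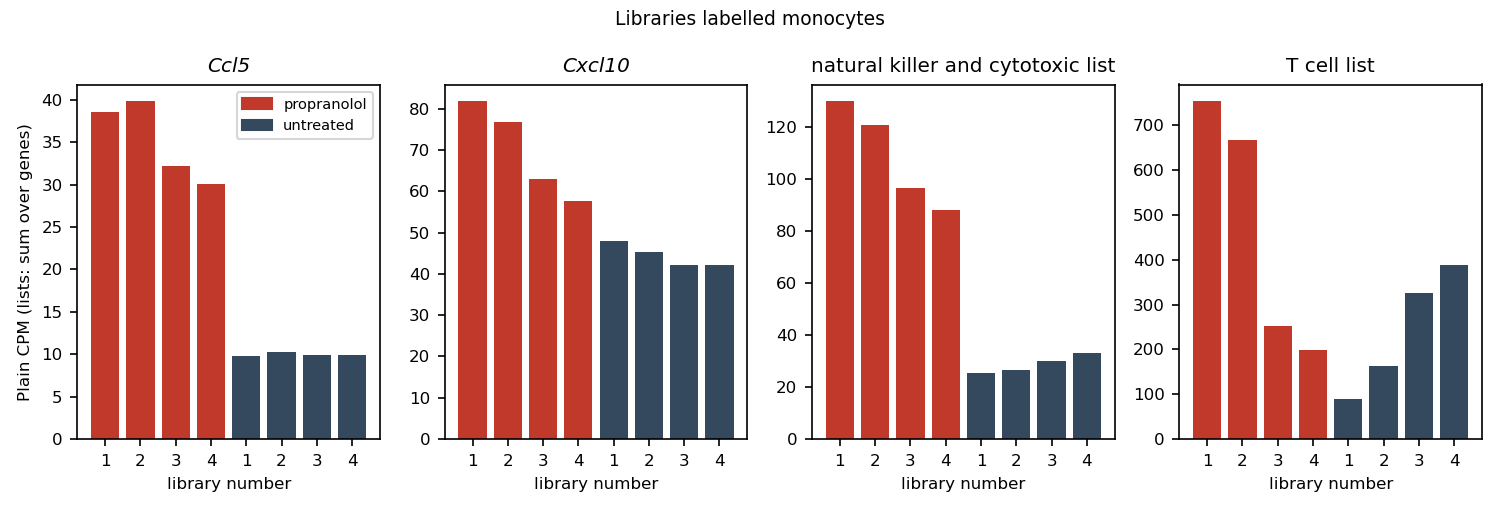
Plain CPM of Ccl5 and Cxcl10 and summed plain CPM of the natural killer and T cell lists in each of the 8 libraries labelled monocytes, propranolol on the left. Ccl5 is at 30.0 to 39.8 CPM with propranolol and at 9.76 to 10.3 CPM untreated. The natural killer list separates the treatments and the T cell list does not. Within propranolol, Ccl5 and the T cell list are both higher in libraries 1 and 2 than in libraries 3 and 4. Within untreated, the T cell list runs from 89.0 to 387 CPM and is higher in libraries 3 and 4, while Ccl5 stays at 9.76 to 10.3 CPM.

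Of the 3 ligands of CXCR3, 2 rose. Cxcl10 had 79.6, 74.9, 62.4 and 57.3 scaled CPM in the propranolol monocyte libraries, against 49.9, 46.5, 42.4 and 41.95 scaled CPM in the untreated monocyte libraries. For Cxcl10 the log2 change was 0.60 ± 0.10 (SE, adjusted p = 0.00118). Cxcl9 had 9.31, 7.83, 9.27 and 10.4 scaled CPM in the propranolol monocyte libraries, against 7.57, 6.85, 5.70 and 4.01 scaled CPM in the untreated monocyte libraries. For Cxcl9 the log2 change was 0.61 ± 0.17 (SE, adjusted p = 0.0212). The groups did not overlap, but neither call held with the close libraries summed (adjusted p = 0.0524 for Cxcl10 and 0.155 for Cxcl9), and Cxcl9 was also lost without untreated library 3 (0.0568) or propranolol library 4 (0.0523). Cxcl11 was not called, at 0.134 to 0.698 scaled CPM with propranolol and 0 to 0.386 scaled CPM untreated, except without untreated library 2 (adjusted p = 0.0095).

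The neutrophil-attracting ligands fell slightly or were not called. Cxcl2 had 256, 239, 256 and 255 scaled CPM in the propranolol monocyte libraries, against 329.9, 319.9, 325 and 339 scaled CPM in the untreated monocyte libraries. For Cxcl2 the log2 change was -0.39 ± 0.04 (SE, adjusted p = 2.66e-05; adjusted p = 0.0323 summed). Cxcl3 had 25.1, 24.5, 26.5 and 27.7 scaled CPM in the propranolol monocyte libraries, against 28.1, 30.4, 29.6 and 29.9 scaled CPM in the untreated monocyte libraries. For Cxcl3 the log2 change was -0.19 ± 0.06 (SE, adjusted p = 0.0293). The epithelial ligand Cxcl15 had 219, 207, 197 and 191 scaled CPM in the propranolol monocyte libraries, against 240.4, 242, 228 and 246 scaled CPM in the untreated monocyte libraries. For Cxcl15 the log2 change was -0.23 ± 0.05 (SE, adjusted p = 0.00401). All 3 had groups apart, and the calls of Cxcl3 and Cxcl15 were lost with the close libraries summed (adjusted p = 0.248 and 0.1). The call of Cxcl3 was also lost with plain library totals (adjusted p = 0.0862) and without any of 5 single libraries, untreated 2, 3 or 4 or propranolol 1 or 2 (0.0669 to 0.0903). Cxcl1 was not called, at 81.2 to 102 scaled CPM with propranolol and 80.8 to 94.4 scaled CPM untreated.

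Of 6 tested constitutive and mucosal ligands, Cxcl12, Cxcl14 and Cxcl17 fell, and Ccl25, Ccl27a and Ccl28 were not called. Cxcl12 had 340.3, 344, 342 and 317 scaled CPM in the propranolol monocyte libraries, against 467, 455, 432 and 426 scaled CPM in the untreated monocyte libraries. For Cxcl12 the log2 change was -0.41 ± 0.04 (SE, adjusted p = 5.19e-05; adjusted p = 0.0318 summed). Cxcl14 had 94.6, 92.3, 78.8 and 79.1 scaled CPM in the propranolol monocyte libraries, against 105, 103, 111 and 116 scaled CPM in the untreated monocyte libraries. For Cxcl14 the log2 change was -0.33 ± 0.07 (SE, adjusted p = 0.00392). Cxcl17, a mucosal ligand, had 7.06, 7.38, 7.32 and 6.66 scaled CPM in the propranolol monocyte libraries, against 7.97, 9.77, 11.1 and 8.73 scaled CPM in the untreated monocyte libraries. For Cxcl17 the log2 change was -0.40 ± 0.11 (SE, adjusted p = 0.0157). Each propranolol library was below each untreated one for all 3. The 14 endothelium genes summed to 5757 to 5781 plain CPM with propranolol and 7465 to 7595 plain CPM untreated, 13 of 14 called lower, and the 9 fibroblast genes to 2906 to 3289 plain CPM with propranolol and 4686 to 4709 plain CPM untreated, 7 of 9 called lower; their part in these results was not tested. Summed, Cxcl14 and Cxcl17 were not called (adjusted p = 0.0964 and 0.0989).

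Ccl21a, the CCR7 ligand of lymphatic endothelium, rose, with 20.4, 21.6, 21.5 and 20.1 scaled CPM in the propranolol monocyte libraries, against 14.3, 17.3, 14.1 and 11.3 scaled CPM in the untreated monocyte libraries. For Ccl21a the log2 change was 0.55 ± 0.11 (SE, adjusted p = 0.00306). It has near-identical copies in the mouse genome, so its count is uncertain, and summed it was not called (adjusted p = 0.0642). Ccl24, a ligand of CCR3 on eosinophils, fell, with 7.70, 9.64, 14.9 and 11.8 scaled CPM in the propranolol monocyte libraries, against 15.2, 18.1, 18.3 and 16.2 scaled CPM in the untreated monocyte libraries. For Ccl24 the log2 change was -0.62 ± 0.17 (SE, adjusted p = 0.0172). This call was lost without propranolol library 2 (adjusted p = 0.0542) and when summed (0.14). The CCR2 ligand Ccl12 had groups that overlapped, at 2.68 to 3.84 scaled CPM with propranolol and 3.79 to 7.43 scaled CPM untreated. For Ccl12 the log2 change was -0.65 ± 0.22 (SE, adjusted p = 0.0434). Without untreated library 1 the change was -0.42 (adjusted p = 0.107). Ccl12 was also lost without untreated library 2 or propranolol library 1, 2 or 3 (0.0569 to 0.108).

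The main monocyte attractants were not called. Ccl2 averaged 67.8 ± 0.643 scaled CPM in the propranolol monocyte libraries and 65.2 ± 1.61 scaled CPM in the untreated monocyte libraries (SD, n = 4 each). For Ccl2 the log2 change was 0.06 ± 0.04 (SE, adjusted p = 0.293). Ccl7 averaged 33.2 ± 3.35 scaled CPM in the propranolol monocyte libraries and 37.3 ± 0.745 scaled CPM in the untreated monocyte libraries (SD, n = 4 each). For Ccl7 the log2 change was -0.17 ± 0.07 (SE, adjusted p = 0.0938). Ccl3, Ccl4, Ccl6 and Ccl9 had log2 changes from -0.19 to 0.06, and Ccl8, Ccl11, Ccl17, Ccl25, Ccl27a, Ccl28, Cx3cl1, Cxcl5, Cxcl13 and Cxcl16 were not called either. Ccl7 was called lower without propranolol library 3 (adjusted p = 0.0497), Ccl11 higher without propranolol library 2 (0.0448) and Cx3cl1 lower without propranolol library 4 (0.045). With plain library totals, however, Ccl2 and Ccl8 were called higher (0.10, adjusted p = 0.0468, and 0.40, adjusted p = 0.0464). Untested were Ccl1, with 34 against 0 reads, at least 11.1-fold higher at the floor, Ccl19, Ccl20 and Ccl26, with at most 0.393 scaled CPM in any library, and Ccl21b and Ccl27b, with 0 reads.

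In whole lung 30 members were tested; 10 were called higher, where 35.5% of all tested genes were higher, and 5 were called lower, where 35.3% were lower. One of the 30 passed the filter only through the untreated libraries. The median log2 change was -0.06 over the members and 0.03 over all genes. With plain library totals 10 members were higher and 4 lower and the median of all genes was 0.21, with 8261 genes higher and 4779 lower, against 6614 and 6575 with TMM.

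The lung libraries also differed in what tissue they held. The 10 melanocyte and melanoma genes summed to 1214 to 11652 plain CPM with propranolol and 17474 to 26501 plain CPM untreated, and all 10 were called lower. The 10 alveolar type 2 genes summed to 13916 to 22247 plain CPM with propranolol and 7427 to 13004 plain CPM untreated, the 14 endothelium genes to 3620.4 to 5869 plain CPM with propranolol and 1891 to 3199 plain CPM untreated, and the 10 T cell genes to 76.3 to 122 plain CPM with propranolol and 30.2 to 56.2 plain CPM untreated. These lists had 10 of 10, 13 of 14 and 10 of 10 genes called higher. Each member was therefore also fitted with libraries scaled on 32 markers of resident lung cells, which put the median of all genes at -0.74, and with the melanocyte level as a covariate. On the resident cell scale 2 members, Ccl5 and Cxcl13, were called higher and 15 lower, and over all genes 1752 were higher and 10881 lower. With the covariate Ccl5 and Cxcl13 were again the 2 called higher and none was called lower, while over all genes 1477 were higher and 1859 lower. The melanocyte sums did not overlap between the treatments, so the covariate runs alongside the treatment. A call lost in that fit is therefore not read as a lost change.

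Cxcl13 had 1.68, 3.73, 4.66, 4.52 and 4.86 scaled CPM in the propranolol lungs, against 0.574, 0.652, 0.918, 1.11 and 1.06 scaled CPM in the untreated lungs. For Cxcl13 the log2 change was 2.16 ± 0.31 (SE, adjusted p = 0.000198). Its change was 1.44 on the resident cell scale (adjusted p = 0.00116) and 1.80 with the melanocyte covariate (adjusted p = 0.0235). Ccl5 had 22.5, 25.9, 19.1, 19.7 and 14.1 scaled CPM in the propranolol lungs, against 7.11, 5.28, 10.6, 8.42 and 9.24 scaled CPM in the untreated lungs. For Ccl5 the log2 change was 1.31 ± 0.20 (SE, adjusted p = 0.000275). In those settings its change was 0.58 (adjusted p = 0.00991) and 1.19 (adjusted p = 0.0288). For both genes all 5 propranolol lungs were above all 5 untreated lungs. The 8 B cell genes, whose cells Cxcl13 attracts, summed to 171 to 252 plain CPM with propranolol and 40.9 to 64.7 plain CPM untreated, with 8 of 8 called higher. The 10 natural killer and cytotoxic genes summed to 51.4 to 98.95 plain CPM with propranolol and 17.2 to 29.2 plain CPM untreated, with 10 of 10 called higher; their part in these results was not tested.

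The CCR2 ligands fell in lung, 3 of 4. Ccl2 had 3.20, 1.20, 1.38, 0.746 and 2.31 scaled CPM in the propranolol lungs, against 4.59, 8.11, 3.84, 5.54 and 4.72 scaled CPM in the untreated lungs. For Ccl2 the log2 change was -1.60 ± 0.36 (SE, adjusted p = 0.00235). Ccl7 had 1.43, 1.08, 1.19, 0.593 and 1.41 scaled CPM in the propranolol lungs, against 2.15, 3.03, 2.32, 2.77 and 3.49 scaled CPM in the untreated lungs. For Ccl7 the log2 change was -1.28 ± 0.25 (SE, adjusted p = 0.00103). Ccl12 had 0.932, 0.696, 0.647, 0.768 and 0.566 scaled CPM in the propranolol lungs, against 1.12, 1.37, 1.08, 1.44 and 1.54 scaled CPM in the untreated lungs. For Ccl12 the log2 change was -0.86 ± 0.20 (SE, adjusted p = 0.00317). All 5 propranolol lungs were below all untreated lungs for the 3 genes, and all 3 stayed called on the resident cell scale, but with the melanocyte covariate none was called. The log2 changes were then -0.48 for Ccl2 (adjusted p = 0.412), -0.60 for Ccl7 (adjusted p = 0.236) and -0.85 for Ccl12 (adjusted p = 0.129), of which that of Ccl12 was about as large as without the covariate. Ccl8 was not called, at 1.89 to 3.62 scaled CPM with propranolol and 1.09 to 6.78 scaled CPM untreated.

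The 2 tested ligands of CXCR3 went opposite ways. Cxcl9 had 3.79, 3.42, 5.78, 3.36 and 2.45 scaled CPM in the propranolol lungs, against 1.43, 0.782, 2.27, 2.35 and 2.65 scaled CPM in the untreated lungs. For Cxcl9 the log2 change was 0.98 ± 0.32 (SE, adjusted p = 0.0177). Untreated lung 5 was above propranolol lung 5. Cxcl10 had 10.4, 6.07, 13.97, 7.46 and 9.43 scaled CPM in the propranolol lungs, against 13.1, 10.2, 18.04, 13.8 and 13.95 scaled CPM in the untreated lungs. For Cxcl10 the log2 change was -0.55 ± 0.22 (SE, adjusted p = 0.0408). The groups of both genes overlapped. On the resident cell scale Cxcl9 was not called (0.24, adjusted p = 0.43) and Cxcl10 was lower (-1.27, adjusted p = 0.000672); with the melanocyte covariate neither was called, at 0.57 for Cxcl9 (adjusted p = 0.441) and -0.57 for Cxcl10 (adjusted p = 0.277), about as large for Cxcl10 as without it. The call of Cxcl10 was lost with plain library totals (adjusted p = 0.164), with a filter at a mean of 5 CPM (0.128), and without any of 8 single lungs, all but untreated lung 2 and propranolol lung 3 (0.0502 to 0.0932). Cxcl11 was not tested, at 0 to 0.168 scaled CPM in any lung.

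Both membrane-anchored ligands, Cx3cl1 and Cxcl16, and the stromal ligand Cxcl12 were higher on the TMM scale; the stromal ligand Cxcl14 was not called. Cxcl12 had 271, 342, 312, 322 and 235 scaled CPM in the propranolol lungs, against 137, 157, 224, 176 and 173 scaled CPM in the untreated lungs. For Cxcl12 the log2 change was 0.77 ± 0.14 (SE, adjusted p = 0.000645). Its groups were apart. Cx3cl1 had 60.3, 72.5, 73.5, 76.4 and 41.6 scaled CPM in the propranolol lungs, against 24.5, 22.1, 45.8, 30.8 and 36.9 scaled CPM in the untreated lungs. For Cx3cl1 the log2 change was 1.02 ± 0.21 (SE, adjusted p = 0.00165). Propranolol lung 5 was below untreated lung 3. Cxcl16 had 41.4, 41.3, 48.1, 52.6 and 36.3 scaled CPM in the propranolol lungs, against 24.3, 38.2, 39.3, 28.02 and 31.8 scaled CPM in the untreated lungs. For Cxcl16 the log2 change was 0.44 ± 0.14 (SE, adjusted p = 0.0169). Its groups overlapped. On the resident cell scale none was called (0.02 for Cxcl12, 0.27 for Cx3cl1 and, reversed in sign, -0.33 for Cxcl16), nor with the melanocyte covariate (0.44 for Cxcl12, 0.46 for Cx3cl1 and 0.04 for Cxcl16, adjusted p = 0.121, 0.273 and 0.901); Cxcl16 also lost the call without propranolol lung 4 (adjusted p = 0.0522).

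Cxcl15, from lung epithelium, had 611, 690.2, 883, 908 and 615 scaled CPM in the propranolol lungs, against 402, 567, 649.7, 506 and 487 scaled CPM in the untreated lungs. For Cxcl15 the log2 change was 0.51 ± 0.16 (SE, adjusted p = 0.0129). On the resident cell scale its sign turned (-0.27, adjusted p = 0.141). Ccl27a had 2.45, 3.10, 3.23, 3.49 and 3.11 scaled CPM in the propranolol lungs, against 2.18, 2.38, 1.999, 1.57 and 1.56 scaled CPM in the untreated lungs. For Ccl27a the log2 change was 0.67 ± 0.17 (SE, adjusted p = 0.00501). Its change was -0.12 on the resident cell scale (adjusted p = 0.685); its near-identical copy Ccl27b was listed at 0, so the count is uncertain. The groups overlapped for Cxcl15 and were apart for Ccl27a. Ccl17 had 5.22, 4.84, 4.83, 4.94 and 4.98 scaled CPM in the propranolol lungs, against 2.87, 1.30, 2.97, 2.53 and 3.51 scaled CPM in the untreated lungs. For Ccl17 the log2 change was 0.91 ± 0.22 (SE, adjusted p = 0.00335). Its groups were apart, and its change was 0.18 on the resident cell scale (adjusted p = 0.509) and 0.96 with the covariate (adjusted p = 0.073). Ccl24 had 0.186, 0.506, 0.517, 0.483 and 0.590 scaled CPM in the propranolol lungs, against 2.04, 2.90, 0.918, 0.532 and 0.577 scaled CPM in the untreated lungs. For Ccl24 the log2 change was -1.57 ± 0.51 (SE, adjusted p = 0.0163). Untreated lungs 1, 2 and 3 were above every propranolol lung and untreated lungs 4 and 5 were not. It stayed lower on the resident cell scale and was not called with the covariate, where its log2 change was -1.75 (adjusted p = 0.19).

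Ccl21a, at 19.2 to 37.2 scaled CPM with propranolol and 16.5 to 29.6 scaled CPM untreated, overlapped. For Ccl21a the log2 change was 0.56 ± 0.20 (SE, adjusted p = 0.025). Its sign turned on the resident cell scale (-0.26, adjusted p = 0.307), and its call was lost without any of 6 single lungs, untreated 1, 4 or 5 or propranolol 2, 3 or 4 (0.0556 to 0.072). The 15 tested members that were not called were Ccl3, Ccl4, Ccl6, Ccl8, Ccl9, Ccl11, Ccl25, Ccl28, Cxcl1, Cxcl2, Cxcl3, Cxcl5, Cxcl14, Cxcl17 and Xcl1. On the resident cell scale, where the median of all genes was -0.74, most of the 15 were called lower. They were Ccl3, Ccl6, Ccl8, Ccl9, Ccl11, Ccl25, Cxcl2, Cxcl3, Cxcl14 and Cxcl17, with log2 changes from -1.89 for Cxcl3 to -0.78 for Ccl25. Cxcl2 was called lower without untreated lung 4 (adjusted p = 0.0338), and Cxcl3 without untreated lung 5 (0.0331) or propranolol lung 5 (0.0238). Of these Ccl6 had 109, 107, 114, 113 and 129 scaled CPM in the propranolol lungs, against 106, 201, 113, 78.9 and 82.3 scaled CPM in the untreated lungs, where untreated lung 2 was the highest; that library's fibroblast list summed to 7358 plain CPM, against 2956 to 4284 in the other untreated lungs. Ccl1, Ccl19 and Ccl20, with at most 0.538 scaled CPM in any lung, and Ccl21b, Ccl26 and Ccl27b, with 0 reads, were not tested.

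**Figure D4:**
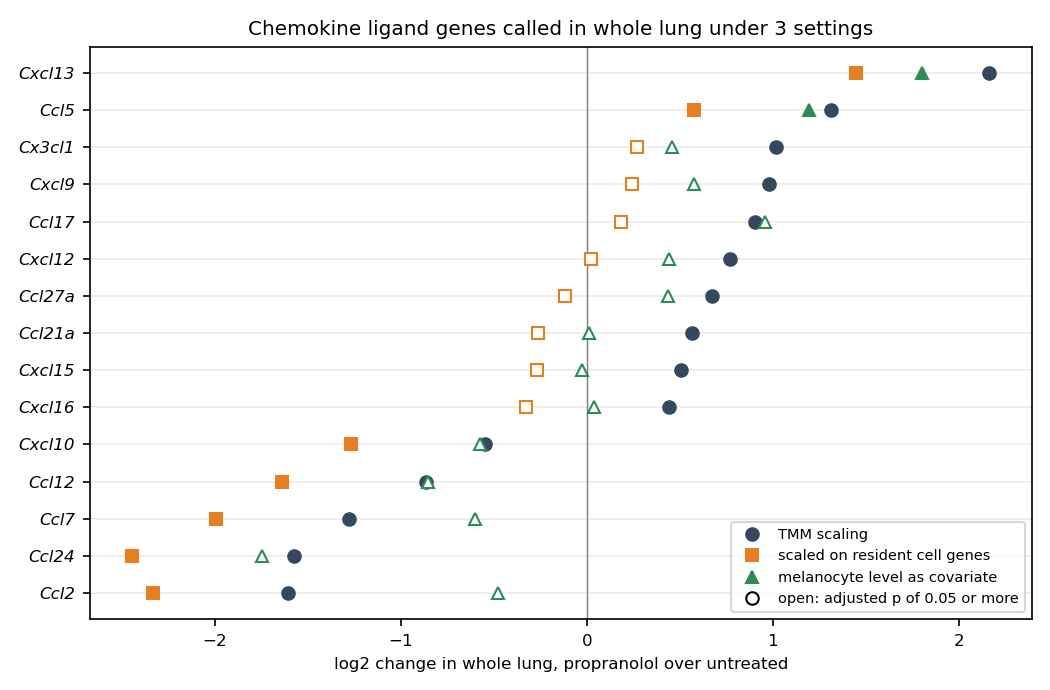
Log2 change (propranolol over untreated) of the 15 ligand genes called in whole lung, under TMM scaling, scaling on resident cell genes and with the melanocyte level as a covariate; filled symbols have an adjusted p under 0.05. Cxcl13 and Ccl5 are the genes filled on the right in all 3 settings, while Ccl27a, Ccl21a, Cxcl15 and Cxcl16 lie left of 0 on the resident cell scale.

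Whether a ligand changed differently in isolated cells and in whole lung was tested as an interaction, the log2 change in the cells minus that in lung. For monocyte libraries 33 members were tested; 3 were called above lung (Ccl2, Ccl7 and Cxcl10), where 25.2% of all tested genes were, and 7 below it (Cxcl12, Cxcl13, Cx3cl1, Ccl17, Cxcl15, Ccl27a and Cxcl16), where 32.3% were. The median difference was -0.06 over the members and -0.17 over all genes. With the close monocyte libraries summed 3 members were above lung and 4 below, and Ccl27a, Cxcl15 and Cxcl16 were not called (adjusted p = 0.0594, 0.0539 and 0.163). The call of Cxcl16 was also lost without a filter on low counts (0.0661) and without any of 6 single libraries (0.0594 to 0.0888). Ccl11 was just short of a call (0.92 ± 0.40, adjusted p = 0.0565) and was called above lung in 18 of 25 alternatives. Cxcl10 rose in the monocyte libraries and fell in lung, a difference of 1.03 ± 0.26 (SE; adjusted p = 0.00294), although its lung call was the weak one described above. For Ccl5 the difference was not called (0.33 ± 0.25, adjusted p = 0.254; 1.18 and adjusted p = 0.000372 with lung scaled on resident cell genes), nor for Cxcl9 (-0.49 ± 0.39, adjusted p = 0.299). With lung scaled on resident cell genes 12 members were above lung and 3 below it, and over all genes 9966 were above and 1885 below, against 5115 above and 6558 below with TMM.

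For CD4 T cells 34 members were tested; 17 were called above lung, where 24% of all tested genes were, and 3 below it (Ccl5, Ccl25 and Ccl27a), where 32.2% were. For members at 0 or close to 0 reads in untreated CD4 T cells the fitted difference depends on the prior count and is no measure of size. Among members with reads in every CD4 T cell library the difference was 6.20 ± 0.29 for Cxcl10 (adjusted p = 5.51e-12), 3.51 ± 0.29 for Cxcl16 (adjusted p = 1.14e-08), 3.52 ± 0.37 for Ccl3 (adjusted p = 2.36e-07) and 3.56 ± 0.54 for Ccl4 (adjusted p = 2.07e-05), with SE. Ccl5 rose less in CD4 T cells than in lung (-0.81 ± 0.24, adjusted p = 0.00913); with lung scaled on resident cell genes that sign turned (0.10, adjusted p = 0.74), and 20 members were above lung and 0 below it. Over all genes 8587 were then above and 2892 below, against 5001 above and 6710 below with TMM. Of the calls above lung, Ccl1 (adjusted p = 0.0365) was lost with plain library totals, with the replicate block and without any of 7 single libraries, and Ccl12 (adjusted p = 0.0307), which had 4 reads in CD4 T cells, was lost without any of 4 single CD4 T cell libraries. Without propranolol CD4 library 3 the difference of Ccl12 was 0.69 (adjusted p = 1). Xcl1 was not called (1.43 ± 0.62, adjusted p = 0.0578) but was in 8 of 25 alternatives, and Cxcl13 (1.42 ± 0.88, adjusted p = 0.18) was called with resident cell scaling (2.31, adjusted p = 0.0271) and without untreated CD4 library 4 (adjusted p = 0.00137).

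**Figure D5:**
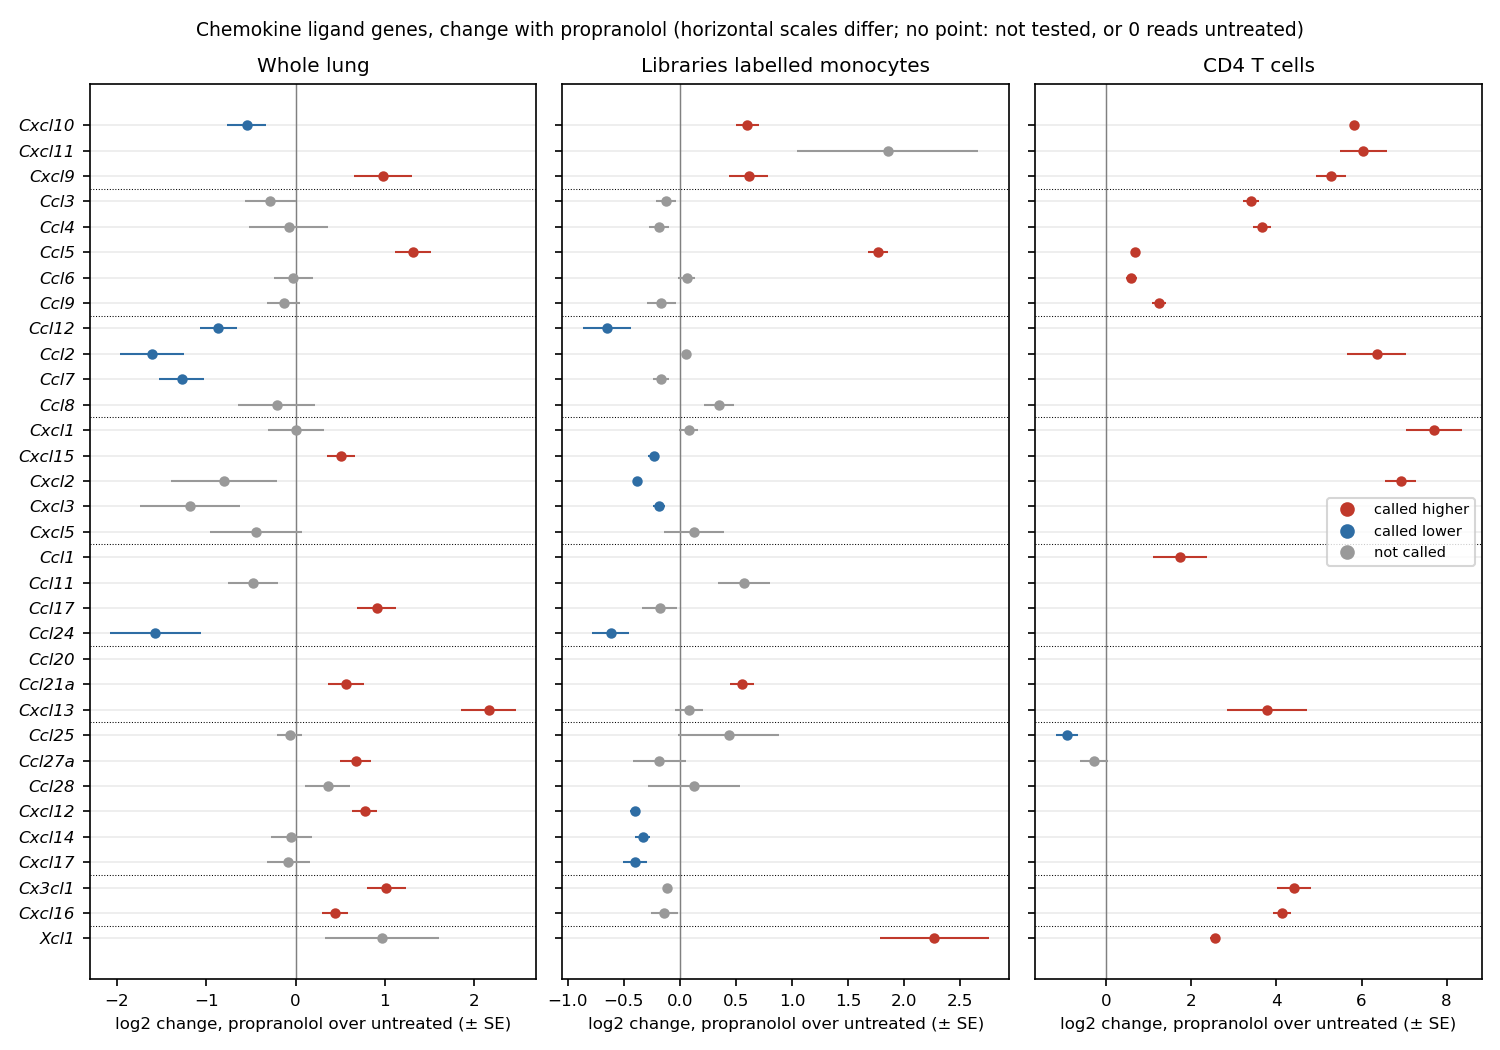
Log2 change (propranolol over untreated, ± SE) of each tested ligand gene in whole lung, in the libraries labelled monocytes and in CD4 T cells, grouped by role between dotted lines, with horizontal scales that differ. Cxcl10 is lower in lung (-0.55) and higher in monocyte libraries (0.60) and CD4 T cells (5.82), and Ccl5 is higher in all 3.

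The receptors for these ligands were listed as 17 genes. In CD4 T cells 12 of 17 were called higher, where 30.1% of all tested genes were, and 2 lower, where 29.9% were, with a median of 1.15 on the log2 scale, and with plain library totals 11 were higher and 5 lower. Ccr7, which leads T cells to lymphoid tissue, averaged 1239 ± 48.1 scaled CPM in the propranolol CD4 T cells and 199.8 ± 3.92 scaled CPM in the untreated CD4 T cells (SD, n = 4 each). Cxcr4, the receptor of Cxcl12, averaged 788 ± 22.4 scaled CPM in the propranolol CD4 T cells and 173 ± 6.76 scaled CPM in the untreated CD4 T cells (SD, n = 4 each). The log2 changes were 2.63 ± 0.06 (SE, adjusted p = 1.52e-11) and 2.19 ± 0.06 (SE, adjusted p = 5.31e-11). Ccr8, found on activated and regulatory T cells, changed by 4.22 ± 0.12 (adjusted p = 9.42e-11), and Cxcr6, the receptor of Cxcl16, by 1.64 ± 0.09 (adjusted p = 2.98e-08). Cxcr3, the receptor of Cxcl9 and Cxcl10, was not called, at 69.3 ± 6.81 scaled CPM in the propranolol CD4 T cells and 75.8 ± 1.59 scaled CPM in the untreated CD4 T cells (SD, n = 4 each).

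In the monocyte libraries 9 of 17 receptors were called higher, where 14.3% of all tested genes were, and 2 lower, where 16.1% were, with a median of 0.61. With plain library totals 12 were higher and 2 lower, and with the close libraries summed 6 were higher and 0 lower. Those with the smallest p were Ccr7 (0.61 ± 0.05, adjusted p = 5.61e-06), Cxcr4 (0.38 ± 0.03, adjusted p = 1.29e-05), Cxcr5 (0.86 ± 0.10, adjusted p = 7.27e-05) and Cxcr3 (1.53 ± 0.21, adjusted p = 0.000297), all higher, and all 4 stayed called when summed (adjusted p = 0.0144, 0.0347, 0.021 and 0.02). In whole lung 11 of 17 were called higher, where 35.5% of all tested genes were, and none lower, where 35.3% were, with a median of 1.15. On the resident cell scale, where 1752 of all genes were higher and 10881 lower, 8 were higher and 3 lower. With the melanocyte covariate, where 1477 of all genes were higher and 1859 lower, 4 were higher. Ccr2 averaged 83.1 ± 20.3 scaled CPM in the propranolol lungs and 20.4 ± 3.81 scaled CPM in the untreated lungs (SD, n = 5 each; log2 change 2.03 ± 0.19, adjusted p = 5.24e-05; 1.26 on the resident cell scale), while its ligands Ccl2, Ccl7 and Ccl12 were lower, as given above. Cxcr2 (1.62 ± 0.18), Cxcr5, the receptor of Cxcl13 (1.41 ± 0.18), and Ccr6 (2.23 ± 0.31) were also higher (adjusted p = 7.95e-05, 0.000131 and 0.000185), and stayed higher on the resident cell scale.

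Atypical receptors bind chemokines and remove them without moving cells. Of the 4 listed, Ackr1, Ackr2 and Ackr4 were called higher in lung (2.34 ± 0.52, 0.80 ± 0.20 and 1.14 ± 0.38 on the log2 scale), of which Ackr1 was called on the resident cell scale. With the melanocyte covariate none of the 4 was called (adjusted p = 0.0853 for Ackr1, 0.402 for Ackr2 and 0.362 for Ackr4). On the resident cell scale Ackr3 was lower (-0.96, adjusted p = 0.00942), and with plain library totals its sign was positive (0.01, adjusted p = 0.962). In the monocyte libraries Ackr2, a scavenger of inflammatory CC ligands, averaged 38.9 ± 1.89 scaled CPM in the propranolol monocyte libraries and 64.2 ± 2.43 scaled CPM in the untreated monocyte libraries (SD, n = 4 each; log2 change -0.72 ± 0.05, adjusted p = 2.45e-06). Summed, Ackr2 stayed called (adjusted p = 0.0122). Ackr3 was lower and Ackr1 higher there, both lost when summed (adjusted p = 0.125 and 0.114), and in CD4 T cells none of the 3 tested was called.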

How the data were processed

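RNA of 26 libraries from 3 kinds of material was sequenced. The deposited values are whole-number read counts per gene, which the authors made with STAR 2.7.9 and featureCounts of Subread 2.0.3 on GRCm39, per the submitters' processing notes. No source used here gives the strand setting, so counts of genes that overlap on opposite strands are uncertain. Each member's symbol came from the deposited tables, and 1 ligand symbol and 1 receptor symbol are not reported here. The members and the gene lists were chosen with earlier results of these data known.

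Counts were tested over all genes with edgeR 4.0.16 (R 4.3.3): filterByExpr with a minimum count of 10, TMM scaling within the comparison, the quasi-likelihood test and Benjamini-Hochberg adjustment, with calls at an adjusted p under 0.05. All p-values are two-sided. The SE of a log2 change is its size divided by the square root of F. A check on simulated counts used the same spread for all genes, so it does not show how the test behaves on these libraries. There were 7 comparisons: propranolol over untreated in each kind of material, 2 differences between these changes, and untreated isolated cells over untreated lung. Plain CPM divides by library totals. Bounds use a floor of 3 counts over a group, and intervals are exact at 95%; both cover counting error only.

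Values per library were given for Cxcl9, Cxcl10 and Ccl5 and for called members averaging at least 1 CPM, up to 12 per comparison by p; a few more called members were named in the same way after their values were seen. Of the receptors up to 4 called genes with the smallest p were named, and Cxcr3 in CD4 T cells and the atypical receptors were added after their values were seen. Alternatives were DESeq2 1.42.0 and its size factors, library totals, no filter, a mean of at least 5 CPM, a replicate block, scaling of lung on 32 resident cell genes, marker levels as covariates (mean log2 of CPM plus 1), each library left out, and close monocyte libraries summed. No 2 libraries agreed within sampling noise (chi-square per degree of freedom 3.52 to 194).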

Additional observations from a re-analysis of the deposited data

Results flagged for a closer look

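In 6 of 124 groups of libraries 1 library lay far from the others by Dixon's test at its 95% limit; chance gives about 5% of groups. Ccl2 was 4.82 scaled CPM in propranolol CD4 library 2, with 1.93 to 2.38 in the others. Ccl4 was 1.65 scaled CPM in untreated CD4 library 2, with 1.30 to 1.35 in the others. Ccl6 was 200.9 scaled CPM in untreated lung 2, with 78.9 to 112.8 in the others. In propranolol monocyte library 4, Cxcl12 was low at 317 scaled CPM (340.3 to 344 in the others) and Cxcl13 high at 17.1 scaled CPM (14.2 to 14.7 in the others). Cxcl2 was low at 238.6 scaled CPM in propranolol monocyte library 2, with 254.7 to 256 in the others.

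The propranolol change differed between the monocyte libraries and whole lung, by the test of the difference, for 10 ligand genes. The log2 change in monocyte libraries was above that in lung by 1.56 for Ccl2, 1.0 for Ccl7 and 1.03 for Cxcl10. The difference was -2.20 for Cxcl13, -1.30 for Cxcl12, -1.25 for Cx3cl1, -1.20 for Ccl17, -0.98 for Ccl27a, -0.86 for Cxcl15 and -0.70 for Cxcl16. Melanocyte genes moved in opposite directions in these 2 kinds of material, with 8 of 10 called higher in the monocyte libraries and 10 of 10 called lower in lung, and their part in the differences was not tested.

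It differed between CD4 T cells and whole lung for 20 ligand genes. The log2 difference was 6.20 for Cxcl10, 7.55 for Cxcl2, 4.09 for Cxcl9, 3.56 for Ccl4, 3.52 for Ccl3, 3.51 for Cxcl16, 3.20 for Cx3cl1 and 1.20 for Ccl9. Genes with few reads in untreated CD4 T cells gave 7.83 for Ccl2, 7.56 for Cxcl1, 5.82 for Ccl24, 5.27 for Cxcl11, 4.24 for Cxcl3 and 3.35 for Ccl1. Fitted values of 7.93 for Ccl7, 6.78 for Ccl20 and 4.11 for Ccl12, which had 0 reads there, depend on the prior count and are no measure of size. The difference was -1.13 for Ccl27a, -1.03 for Ccl25 and -0.81 for Ccl5.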

How the results depend on the processing

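Of the values per gene and alternative, those that kept direction and side of the threshold numbered 470 of 522 in lung, 449 of 488 in monocyte libraries, 250 of 258 in CD4 T cells, 795 of 844 and 679 of 708 for the differences from lung of monocyte libraries and CD4 T cells, and 414 of 428 and 363 of 389 for untreated monocyte libraries and CD4 T cells over lung. With a mean of at least 5 CPM, which tests fewer genes, lung had 6 members higher and 0 lower, CD4 T cells 10 higher, the CD4 difference from lung 5 higher, and untreated CD4 T cells over lung 2 higher and 9 lower with 10631 genes called. With resident cell scaling lung had 2 higher and 15 lower, the monocyte difference 12 higher and 3 lower, and the CD4 difference 0 lower. Signs then turned in lung for Ccl27a (-0.12), Ccl21a (-0.26), Cxcl15 (-0.27) and Cxcl16 (-0.33), in the monocyte difference for Ccl21a (0.81), Cxcl15 (0.027) and Cxcl16 (0.18), and in the CD4 difference for Ccl5 (0.10). With the melanocyte covariate lung had 3336 genes called, 2 members higher and 0 lower, and Cxcl15 at -0.027; with the T cell covariate Ccl25 was -0.54 in monocyte libraries (adjusted p = 0.00122). Without a filter the monocyte difference had 5 higher, and with library totals untreated monocyte libraries over lung had 2 lower. Close monocyte libraries summed, chosen after seeing the data, left 1377 genes called in monocyte libraries, with 2 members in each direction, and put 4 members below lung in the monocyte difference. Leaving out single libraries gave 5 to 9 members lower in monocyte libraries (5 without propranolol library 2) and 3 to 5 higher in the monocyte difference (5 without untreated lung 4 or 5 or propranolol lung 5). Where these causes are not in the construction of the alternative, the cause was not tested. Same-numbered libraries were not treated as pairs in the main fits, since the labels do not say whether they share an animal or batch. The correlation of their deviations was -0.14 to 0.65 in lung, -0.64 to -0.42 in monocyte libraries and -0.07 to 0.08 in CD4 T cells. It cannot settle whether they are paired. With a replicate block 3544 genes were called in monocyte libraries against 5553 without it, and members higher and lower numbered 10 and 4 in lung, 4 and 6 in monocyte libraries and 16 and 1 in CD4 T cells; Ccl24 in lung had an adjusted p of 0.0597. Depth limits members with few reads in CD4 T cells, such as Ccl7, Ccl12 and Ccl24, which were not tested there.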
